A study of Mus musculus with 6 samples.

Results

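The genes described here are 37 genes that most blood cells share and that serve cell signalling and the actin cytoskeleton. They were picked by name out of the 19505 named genes of the array. The probe set with the highest mean over both genotypes was to stand for each gene, and each of the 37 had 1 probe set (37 in all), so no choice between probe sets arose. The names were listed with earlier results of these data known, and Dok2, Clnk and Tmsb10 had already been ranked by their difference between the genotypes. The differences of the 37 genes are therefore given as a description, and no test is drawn over them as a set.

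Total RNA of submandibular glands was measured on Clariom S arrays in 3 Myd88-/- and 3 Myd88+/+ mice, with 1 array per mouse. All 6 were female, 10 weeks old and of the NOD.B6 background. NOD mice develop autoimmune infiltrates in salivary glands, and Myd88 is the adaptor of most Toll-like receptors and of the interleukin-1 receptor family. The labels do not say how the allele was made, and a stretch of chromosome 9 around Myd88 may derive from another strain. None of the 37 genes lies on that chromosome (0 of 37).

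A leukocyte that moves, or that meets an antigen or a microbe, turns surface signals into rearranged actin. Receptors and kinases recruit adaptor proteins, adaptors bring exchange factors to small GTPases, and the active GTPases switch on the proteins that branch, bundle and dissolve actin filaments. Phosphatases set the threshold of this chain. Several proteins of the chain exist in a form made by blood cells and in another form made by most tissues. In an exocrine gland, RNA of the blood cell forms comes largely from resident and infiltrating leukocytes. In whole tissue, fewer leukocytes and less RNA per leukocyte cannot be told apart.

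Values are log2 expression values, on which a difference of 1 is a 2-fold difference. The 23 probe sets that serve as background controls had a median of 5.55, and values near or under it carry little information on size. The array medians reached at most 6.10 and differed little. The array signal spanned 6.97 ± 0.15 (SD) log2 units from the 10th to the 90th percentile over the 3 Myd88-/- glands and 7.20 ± 0.10 (SD) over the 3 Myd88+/+ glands (two-sided exact permutation p = 0.2, where 0.1 is the smallest p possible). Myd88 itself read 7.33, 6.80 and 7.47 in Myd88-/- glands, against 7.81, 7.86 and 7.53 in Myd88+/+ glands, a difference of -0.53 (limma adjusted p = 0.462). All 3 Myd88-/- values lay under the Myd88+/+ values, and the position of its probes relative to the allele's change was not analysed here. Of the tissue's markers, the secreted products Klk1 and Prol1 were at the ceiling of 19.93 on all 6 arrays, and the water channel Aqp5 read 13.76 to 13.95 in Myd88-/- and 13.74 to 14.32 in Myd88+/+ glands. Myd88+/+ replicate 3 stood apart in Dcpp3, a demilune cell and parotid protein, at 14.91. Dcpp3 read 4.80 to 6.59 in Myd88-/- glands and 4.65 and 4.70 in the other two Myd88+/+ glands. The same mouse had the highest value of most of the 37 genes, so a difference is also given without it where that moved it by over 1.5 times, and the part of other glandular tissue in them was not tested.

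The transcripts of the set were lower on average in Myd88-/- glands, and none passed a test of its own. Of the 37 genes, 34 had a lower mean in Myd88-/- glands and 3 a higher one, against 48.4% of all named genes with a lower mean. The median difference, Myd88-/- minus Myd88+/+, was -0.49 over the 37 genes and 0.01 over all 19505. The common leukocyte antigen Ptprc was 3.07-fold lower and the lymphocyte glycoprotein gene Cd52 was 3.57-fold lower. Cd44, Lcp1 and Tmsb4x, which cells outside the blood also make, differed by 0.27, -0.14 and 0.06, but Tmsb10, a relative of Tmsb4x, differed by -1.18. The cell source of these transcripts was not tested. Limma called 0 of 22206 probe sets at an adjusted p under 0.05 (0%), at a smallest adjusted p of 0.128, and 2232 at an unadjusted p under 0.05. The adjusted p of the 37 genes ran from 0.321 to 0.984. At an unadjusted p under 0.05, 14 of the 37 were lower and 0 higher, where 5.67% of all named genes were lower and 4.19% higher. Without Myd88+/+ replicate 3, 10 of the 37 and 5.03% of all named genes were lower at that threshold. At least 2-fold lower were 8 of the 37, where 0.831% of all named genes were. Without Myd88+/+ replicate 3 that count was 4 of the 37 (Ptprc, Cd52, Tmsb10 and Dok2), where 0.492% of all named genes were.

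The spread between the wild-type glands was wide. Myd88+/+ replicate 3 had the highest of the 6 values in 31 of the 37 genes, where it had the highest value in 14.6% of all named genes. Myd88+/+ replicate 1 was the lowest of its group in 27 of the 37, against 33.5% of all named genes. The lowest of the 6 values fell to Myd88-/- replicate 3 in 16 genes, to Myd88-/- replicate 1 in 9 and to Myd88-/- replicate 2 in 6. Over all named genes the shares of these 3 mice were 19.9%, 15.3% and 16.3%, in the same order. The median SD of the 37 genes was 0.29 in Myd88-/- and 0.45 in Myd88+/+ glands, while over all named genes it was 0.23 in Myd88-/- and 0.21 in Myd88+/+ glands. The SD was larger in Myd88+/+ glands in 27 of the 37 genes, and in 45.6% of all named genes. In 31 of the 37 the range within the Myd88+/+ group exceeded the difference between the genotypes, and so it did in 79% of all named genes. Without Myd88+/+ replicate 3 the median difference was -0.26 (0.00 over all named genes), with 31 of 37 lower and 49.4% of all named genes lower. Without Myd88+/+ replicate 1 it was -0.80.

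**Figure D1:**
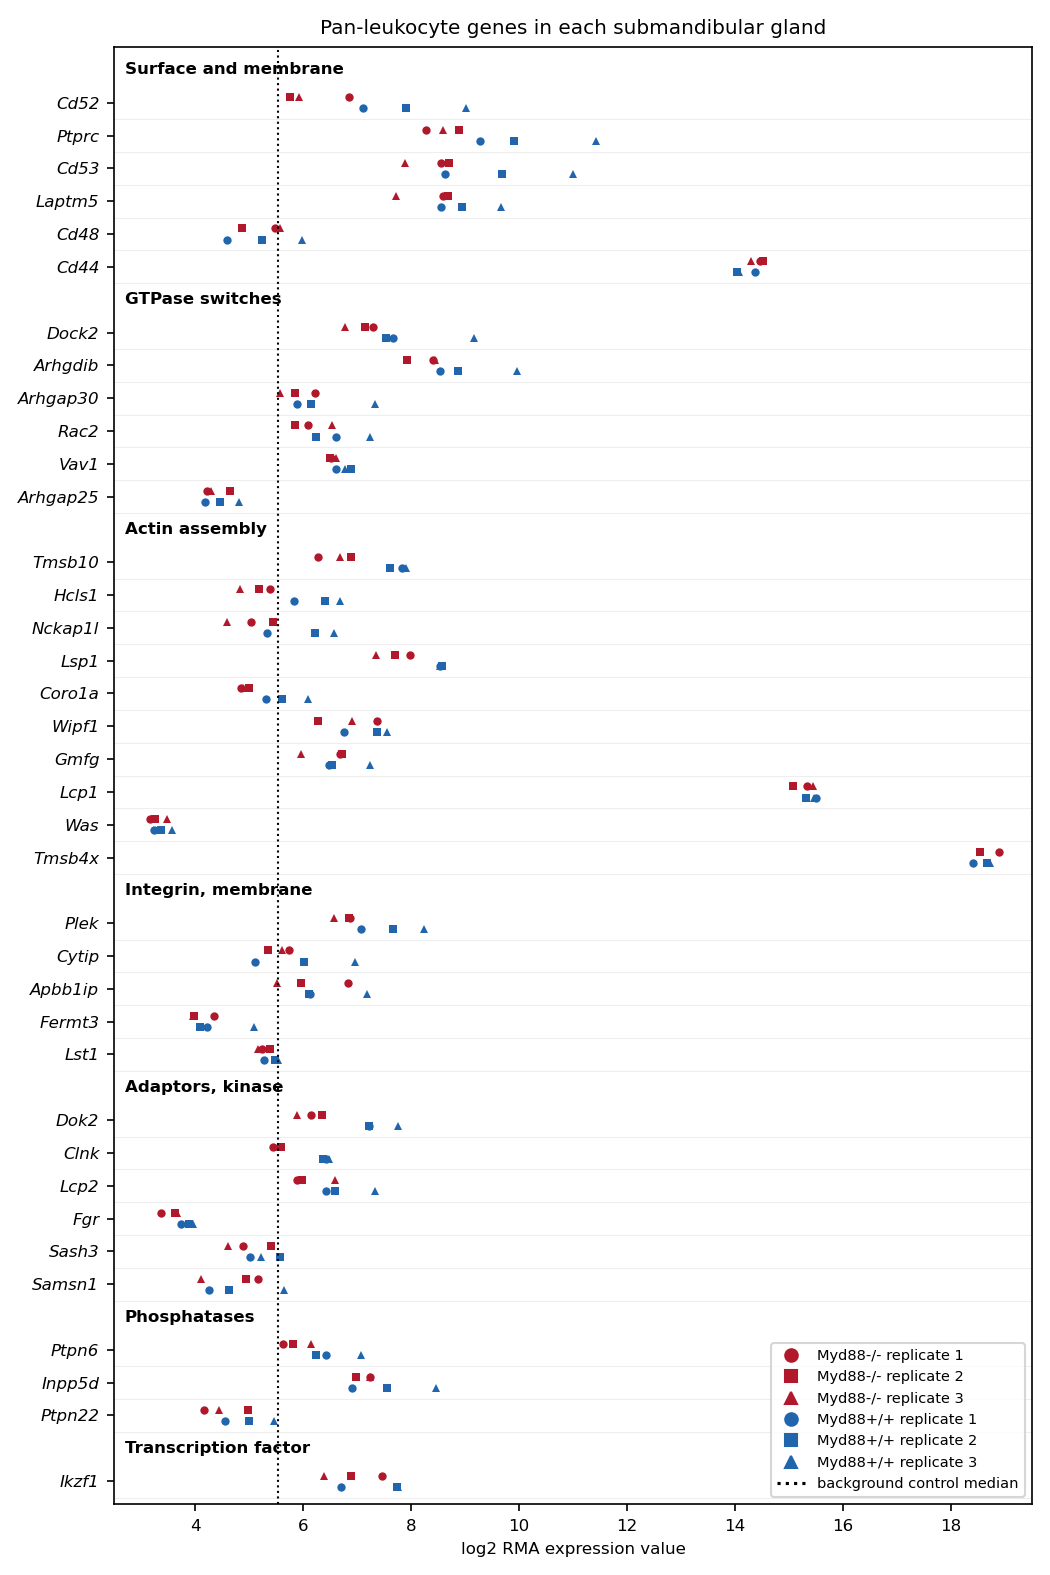
Log2 expression value (horizontal axis) of each of the 37 genes, by role, in the 3 Myd88-/- glands (red, upper row of each gene) and the 3 Myd88+/+ glands (blue, lower row), with 1 point per mouse, its replicate number being given by the symbol. The dotted line is the background control median of 5.55, and the blue triangle of Myd88+/+ replicate 3 is the rightmost point in 31 of the 37 genes.

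In 14 of the 37 genes all 3 Myd88-/- values lay under all 3 Myd88+/+ values, and in 0 the reverse, where 7.45% and 7.42% of all named genes did. The 14 were Ptprc, Cd52, Vav1, Dock2, Arhgdib, Hcls1, Coro1a, Lsp1, Tmsb10, Plek, Clnk, Dok2, Fgr and Ptpn6. When only Myd88+/+ replicates 1 and 2 were set against the 3 Myd88-/- glands, the count stayed at 14, while the share of all named genes was 13.2%. Leaving out a mouse cannot lower such a count. A mean over the 6 arrays above the background control median was found in 26 of the 37 genes and in 58.4% of all named genes. Ptprc, Cd53 and Laptm5, which mark blood cells, were above it on all 6 arrays. Cd44, Lcp1 and Tmsb4x are not specific to blood cells, and the name pan-leukocyte does not hold for their source in a gland. Whether Tmsb10 and the other members come only from blood cells in a gland was not tested. Those 26 had a median difference of -0.67, and all 11393 genes above background one of -0.06. Without Myd88+/+ replicate 3 these medians were -0.39 and -0.07.

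The sequence around the gene starts was searched for letters that blood cell transcription factors bind. RefSeq windows of 300 bases, 250 before and 50 after a start, were found for 31 of the 37 genes (44 windows, GRCm38.p6). Cd52, Rac2, Nckap1l, Lsp1, Lst1 and Dok2 were not matched. The letters GAGGAAGT, a form of the site of PU.1, the factor encoded by Spi1 that myeloid and B cells need, stood on either strand in 18.2% of the 44 windows and in 3.11% of all 32544 windows. The genes with it were Apbb1ip, Arhgap25, Cd53, Clnk, Inpp5d, Samsn1 and Vav1. TGTGGT, the core of the Runx site, was in 31.8% of these windows and 16.7% of all. TGGGAA, a core bound by Ikaros, was in 20.5% and 25.4%, the core of interferon response elements (GAAA, any 2 bases and GAAA again) in 4.55% and 3.45%, and TATAAA in 11.4% and 13.6%. No motif holds the letters of another on either strand, and a match is only a match of letters. The windows of the 4 genes above background with the match and the largest limma statistic are shown 5′ to 3′ on the gene's strand, with the match in capitals.
Clnk (GRCm38.p6 chr5:38876644-38876943, minus strand): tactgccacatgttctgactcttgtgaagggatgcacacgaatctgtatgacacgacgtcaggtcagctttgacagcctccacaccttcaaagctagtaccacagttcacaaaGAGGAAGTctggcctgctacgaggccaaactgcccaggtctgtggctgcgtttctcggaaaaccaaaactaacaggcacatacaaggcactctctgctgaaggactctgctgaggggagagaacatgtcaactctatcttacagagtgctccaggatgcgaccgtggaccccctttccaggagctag
Cd53 (GRCm38.p6 chr3:106790100-106790399, minus strand): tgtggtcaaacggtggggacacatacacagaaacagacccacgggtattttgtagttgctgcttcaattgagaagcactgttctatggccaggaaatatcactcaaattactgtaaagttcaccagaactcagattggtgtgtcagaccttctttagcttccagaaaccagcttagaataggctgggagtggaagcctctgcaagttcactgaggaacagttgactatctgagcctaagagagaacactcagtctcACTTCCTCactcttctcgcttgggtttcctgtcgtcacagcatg
Inpp5d (GRCm38.p6 chr1:87620062-87620361, plus strand): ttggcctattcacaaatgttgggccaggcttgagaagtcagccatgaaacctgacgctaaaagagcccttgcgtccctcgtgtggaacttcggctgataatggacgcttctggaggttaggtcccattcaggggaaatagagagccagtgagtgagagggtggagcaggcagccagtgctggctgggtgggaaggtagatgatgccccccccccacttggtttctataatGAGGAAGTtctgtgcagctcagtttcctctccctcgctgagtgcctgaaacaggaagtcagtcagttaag
Vav1 (GRCm38.p6 chr17:57278850-57279149, plus strand): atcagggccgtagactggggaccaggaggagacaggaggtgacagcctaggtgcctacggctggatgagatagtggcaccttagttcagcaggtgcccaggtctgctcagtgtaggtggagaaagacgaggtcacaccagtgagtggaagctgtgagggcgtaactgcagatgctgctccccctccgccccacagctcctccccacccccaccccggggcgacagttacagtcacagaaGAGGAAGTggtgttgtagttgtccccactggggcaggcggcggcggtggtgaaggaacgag
The match began at base 114 of the window in Clnk, 231 in Inpp5d and 240 in Vav1, before the start, and at base 257 in Cd53, after it and on the opposite strand. Clnk, Cd53, Inpp5d and Vav1 differed by -0.89, -1.40, -0.49 and -0.22 between the genotypes (limma SE 0.16, 0.50, 0.34 and 0.16). Without Myd88+/+ replicate 3 the difference of Cd53 was -0.79 and that of Inpp5d -0.08. A relation of these letters, or of Spi1, to the differences was not tested. Spi1 read 8.20, 8.98 and 7.27 in Myd88-/- glands, against 8.93, 9.93 and 10.96 in Myd88+/+ glands, a difference of -1.79 (limma adjusted p = 0.388). Its values overlapped at Myd88-/- replicate 2 and Myd88+/+ replicate 1.

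Surface and membrane proteins held the lowest differences of the set, with a median of -1.06 (-0.60 without Myd88+/+ replicate 3) and 4 of 6 genes lower. Ptprc, the receptor-type tyrosine phosphatase of all nucleated blood cells, read 8.28, 8.90 and 8.60 in Myd88-/- glands, against 9.28, 9.91 and 11.43 in Myd88+/+ glands. Every Myd88-/- gland was under every Myd88+/+ gland, and the mean difference was -1.62 (SE 0.46, 95% interval -2.66 to -0.57, limma adjusted p = 0.384). Without Myd88+/+ replicate 3, the highest of all, the difference was -1.002. Cd52, a short glycoprotein anchored by lipid to lymphocytes and other leukocytes, read 6.85, 5.76 and 5.93 in Myd88-/- glands, against 7.12, 7.91 and 9.01 in Myd88+/+ glands. The groups did not overlap, although Myd88-/- replicate 1 came near the lowest Myd88+/+ gland, and the difference was -1.83 (SE 0.45, limma adjusted p = 0.345) or -1.33 without Myd88+/+ replicate 3. The leukocyte tetraspanin gene Cd53 read 8.55, 8.70 and 7.88 in Myd88-/- glands, against 8.63, 9.69 and 11.01 in Myd88+/+ glands. Here Myd88+/+ replicate 1 fell among the Myd88-/- values, and the difference of -1.40 became -0.79 without Myd88+/+ replicate 3.

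Laptm5, a lysosomal membrane protein that lowers antigen receptor levels, read 8.60, 8.69 and 7.73 in Myd88-/- glands, against 8.56, 8.95 and 9.67 in Myd88+/+ glands, a difference of -0.72, or -0.42 without Myd88+/+ replicate 3. Its groups overlapped at Myd88+/+ replicate 1. Cd48, a lipid-anchored ligand of lymphocyte receptors, read 5.49, 4.86 and 5.57 in Myd88-/- glands, against 4.59, 5.25 and 5.97 in Myd88+/+ glands. Both group means lay under the background control median, and the difference was 0.03, with 0.39 without Myd88+/+ replicate 3. Cd44, the hyaluronan receptor that epithelial and stromal cells make as well, averaged 14.43 ± 0.12 (SD) over the 3 Myd88-/- glands and 14.15 ± 0.19 (SD) over the 3 Myd88+/+ glands. It was the only member with a positive difference above background other than Tmsb4x, and its groups overlapped at Myd88+/+ replicate 1.

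Rac2 and the regulators of small GTPases all had a lower mean in Myd88-/- glands (6 of 6, median -0.55). The median was -0.24 without Myd88+/+ replicate 3. An unadjusted p under 0.05 was found in 2 of the 6, where 5.67% of all named genes were lower at that threshold. Dock2, the exchange factor that activates Rac in migrating leukocytes, read 7.30, 7.14 and 6.77 in Myd88-/- glands, against 7.66, 7.54 and 9.16 in Myd88+/+ glands. Myd88+/+ replicate 3 stood well above the rest, and the difference of -1.05 (SE 0.39) was -0.53 without it. Arhgdib, the blood cell inhibitor that holds small GTPases in the cytosol, read 8.40, 7.93 and 8.45 in Myd88-/- glands, against 8.54, 8.87 and 9.96 in Myd88+/+ glands. The groups were apart by a narrow margin, with a difference of -0.86, or -0.44 without Myd88+/+ replicate 3. Rac2, the Rac form of blood cells, read 6.10, 5.86 and 6.53 in Myd88-/- glands, against 6.61, 6.24 and 7.24 in Myd88+/+ glands, a difference of -0.53 between overlapping groups, or -0.26 without Myd88+/+ replicate 3.

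Arhgap30, which switches small GTPases off, read 6.22, 5.86 and 5.57 in Myd88-/- glands, against 5.89, 6.15 and 7.34 in Myd88+/+ glands. Only Myd88+/+ replicate 3 was above all Myd88-/- glands, and without it the difference of -0.58 was -0.14. Arhgap25, which switches Rac off in phagocytes, read 4.22, 4.66 and 4.29 in Myd88-/- glands, against 4.18, 4.45 and 4.82 in Myd88+/+ glands. All 6 values were under the background control median, and the difference was -0.10, with 0.07 without Myd88+/+ replicate 3. Vav1, the exchange factor that antigen receptors activate, averaged 6.54 ± 0.05 (SD) over the 3 Myd88-/- glands and 6.77 ± 0.14 (SD) over the 3 Myd88+/+ glands. This small difference of -0.22 came with groups that did not overlap and little spread in either of them.

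Among the 10 genes that assemble actin, 9 had a lower mean in Myd88-/- glands and 5 of them an unadjusted p under 0.05, against 5.67% of all named genes. The median was -0.57. Tmsb10, which sequesters actin monomers, read 6.27, 6.89 and 6.68 in Myd88-/- glands, against 7.84, 7.62 and 7.91 in Myd88+/+ glands. The groups lay well apart, with a difference of -1.18 (SE 0.20, limma adjusted p = 0.321) that stayed between -1.31 and -1.01 when each mouse was left out in turn. Its relative Tmsb4x, which nearly all cells make, read 18.89, 18.54 and 18.54 in Myd88-/- glands, against 18.42, 18.66 and 18.72 in Myd88+/+ glands, a difference of 0.06 with a 95% interval of -0.35 to 0.46, or 0.12 without Myd88+/+ replicate 3. These values lay near the ceiling of the scale, where differences may be compressed. Hcls1, the cortactin relative of blood cells, read 5.40, 5.19 and 4.84 in Myd88-/- glands, against 5.84, 6.40 and 6.68 in Myd88+/+ glands. Each Myd88-/- value was under the background control median and each Myd88+/+ value above it, and the difference was -1.17 (SE 0.25, limma adjusted p = 0.321).

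Lsp1, an actin-binding protein of lymphocytes and phagocytes, read 7.99, 7.71 and 7.36 in Myd88-/- glands, against 8.54, 8.57 and 8.53 in Myd88+/+ glands. The Myd88+/+ glands were within 0.041 of each other, and replicate 3 was the lowest of them, unlike in most members. The difference was -0.86 (SE 0.19, limma adjusted p = 0.339) with all mice and -0.87 without Myd88+/+ replicate 3. Coro1a, the coronin that T cells need for survival and migration, read 4.85, 5.01 and 4.90 in Myd88-/- glands, against 5.32, 5.61 and 6.10 in Myd88+/+ glands. The groups did not overlap, at a difference of -0.76, but all Myd88-/- values and 1 Myd88+/+ value were under the background control median. Nckap1l, the blood cell subunit of the WAVE complex that starts actin branching, read 5.04, 5.44 and 4.60 in Myd88-/- glands, against 5.33, 6.22 and 6.58 in Myd88+/+ glands, a difference of -1.02. Its Myd88+/+ replicate 1 fell among the Myd88-/- values, and that value and all Myd88-/- values were under the background control median.

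The rest of the actin genes had differences between -0.37 and -0.09. The gene Was, mutated in Wiskott-Aldrich syndrome, averaged 3.31 ± 0.16 (SD) over the 3 Myd88-/- glands and 3.40 ± 0.16 (SD) over the 3 Myd88+/+ glands, far under the background control median. Its partner Wipf1 averaged 6.85 ± 0.56 (SD) over the 3 Myd88-/- glands and 7.22 ± 0.42 (SD) over the 3 Myd88+/+ glands. Gmfg, which takes actin branches apart, had a difference of -0.29, with -0.05 without Myd88+/+ replicate 3. Lcp1, a bundling protein first known from leukocytes, averaged 15.29 ± 0.19 (SD) over the 3 Myd88-/- glands and 15.43 ± 0.10 (SD) over the 3 Myd88+/+ glands. The groups of these 4 genes overlapped, and without Myd88+/+ replicate 3 the difference of Wipf1 was -0.21 and that of Was -0.01.

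Of the 5 genes of integrin activation and the membrane, all 5 had a lower mean in Myd88-/- glands, with a median of -0.37 that was -0.06 without Myd88+/+ replicate 3. Plek, a target of protein kinase C in platelets and leukocytes, read 6.88, 6.85 and 6.58 in Myd88-/- glands, against 7.08, 7.67 and 8.25 in Myd88+/+ glands. It was the one gene of the group whose values did not overlap, at -0.90 (SE 0.28, limma adjusted p = 0.388), or -0.61 without Myd88+/+ replicate 3. Fermt3, the kindlin that activates integrins in blood cells, read 4.35, 3.98 and 3.97 in Myd88-/- glands, against 4.23, 4.10 and 5.09 in Myd88+/+ glands. All these values were under the background control median, and Myd88+/+ replicate 3 alone stood above the Myd88-/- range, with a difference of -0.37 that was -0.06 without it. Cytip, which binds cytohesins and dampens adhesion, read 5.74, 5.36 and 5.61 in Myd88-/- glands, against 5.10, 6.02 and 6.97 in Myd88+/+ glands. Its difference of -0.46 was 0.01 without Myd88+/+ replicate 3. Apbb1ip, which links Rap proteins to talin, read 6.84, 5.96 and 5.52 in Myd88-/- glands, against 6.13, 6.12 and 7.19 in Myd88+/+ glands, and its difference of -0.37 was -0.01 without that mouse. Lst1, a small membrane protein encoded among the MHC genes, averaged 5.27 ± 0.11 (SD) over the 3 Myd88-/- glands and 5.43 ± 0.14 (SD) over the 3 Myd88+/+ glands. Every value of Lst1 was under the background control median.

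The adaptors and the kinase all had a lower mean in Myd88-/- glands (6 of 6, median -0.47). In 3 of them all Myd88-/- values lay under the Myd88+/+ values, against 7.45% of all named genes. Dok2, a docking protein that restrains Ras signalling in blood cells, read 6.14, 6.36 and 5.89 in Myd88-/- glands, against 7.22, 7.22 and 7.76 in Myd88+/+ glands. The groups lay well apart, with a difference of -1.27 (SE 0.21, limma adjusted p = 0.321) that ran from -1.39 to -1.09 without 1 mouse. Clnk and Lcp2 belong to 1 family of adaptors that nucleate signalling complexes below immune receptors, with Blnk, the form of B cells and myeloid cells, as the third. Clnk read 5.44, 5.59 and 5.57 in Myd88-/- glands, against 6.42, 6.37 and 6.49 in Myd88+/+ glands, a difference of -0.89 (SE 0.16, limma adjusted p = 0.321). Its spread within either genotype was small, and 1 Myd88-/- value lay under the background control median. Lcp2 read 5.88, 5.98 and 6.60 in Myd88-/- glands, against 6.43, 6.59 and 7.32 in Myd88+/+ glands, a difference of -0.63 between groups that overlapped at Myd88-/- replicate 3, or -0.36 without Myd88+/+ replicate 3. Blnk, which is not among the 37, read 7.70, 7.54 and 7.71 in Myd88-/- glands, against 8.53, 8.66 and 8.32 in Myd88+/+ glands, a difference of -0.85 (limma adjusted p = 0.321).

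Fgr, a kinase of the Src family in myeloid cells, read 3.38, 3.63 and 3.67 in Myd88-/- glands, against 3.75, 3.88 and 3.96 in Myd88+/+ glands. The groups did not overlap, but every value was under the background control median, so the size of the difference of -0.31 is uncertain. Samsn1, an adaptor that restrains B cells, read 5.17, 4.94 and 4.11 in Myd88-/- glands, against 4.26, 4.62 and 5.66 in Myd88+/+ glands. Its difference of -0.10 became 0.30 without Myd88+/+ replicate 3, the only value of 6 above the background control median. Sash3, a lymphocyte adaptor, averaged 4.97 ± 0.41 (SD) over the 3 Myd88-/- glands and 5.27 ± 0.29 (SD) over the 3 Myd88+/+ glands. Both means were under the background control median.

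The 3 phosphatases had differences between -0.71 and -0.48, with a median of -0.49 that was -0.25 without Myd88+/+ replicate 3. Ptpn6, which inhibitory receptors recruit to switch signalling off, read 5.63, 5.82 and 6.15 in Myd88-/- glands, against 6.42, 6.24 and 7.08 in Myd88+/+ glands. Its groups did not overlap, and the difference was -0.71 (SE 0.25, limma adjusted p = 0.431), or -0.46 without Myd88+/+ replicate 3. Inpp5d, a phosphatase that removes a phosphate from the lipids made by phosphoinositide kinases, read 7.25, 6.99 and 7.24 in Myd88-/- glands, against 6.92, 7.56 and 8.47 in Myd88+/+ glands. Myd88+/+ replicate 1 was the lowest of all 6, and the difference of -0.49 was -0.08 without Myd88+/+ replicate 3. Ptpn22, a phosphatase that restrains T cell receptor signalling and is linked to autoimmunity in humans, read 4.16, 4.98 and 4.44 in Myd88-/- glands, against 4.55, 5.01 and 5.46 in Myd88+/+ glands, all under the background control median. Its difference of -0.48 was -0.25 without Myd88+/+ replicate 3. Ikzf1, the Ikaros transcription factor of the lymphoid lineages, read 7.46, 6.88 and 6.39 in Myd88-/- glands, against 6.70, 7.74 and 7.77 in Myd88+/+ glands. Myd88+/+ replicate 1 lay under 2 of the Myd88-/- glands, with a difference of -0.49 (SE 0.34, limma adjusted p = 0.659), or -0.31 without Myd88+/+ replicate 3.

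**Figure D2:**
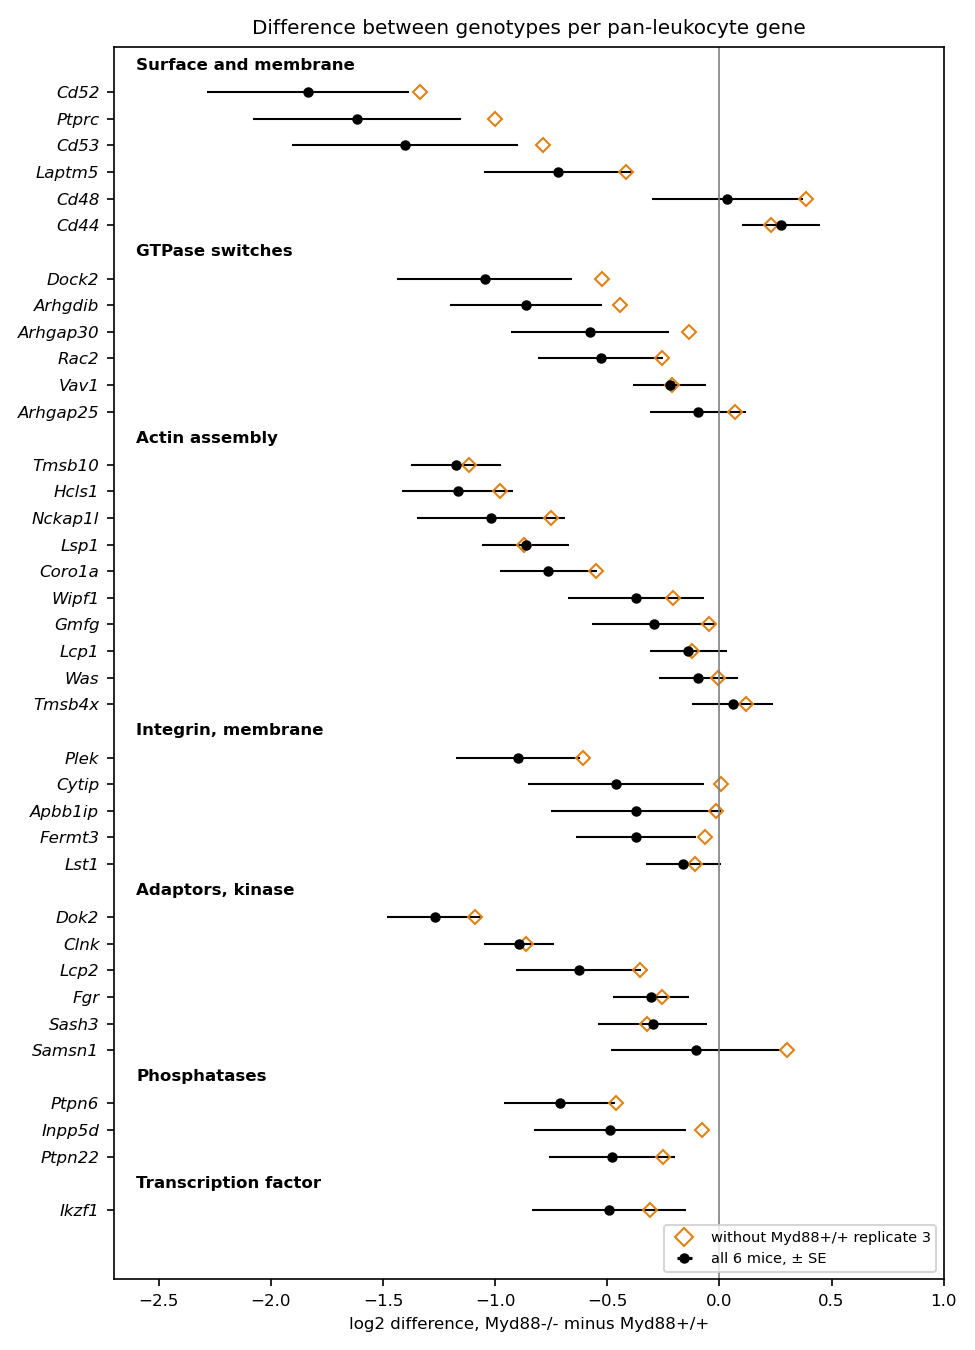
Log2 difference, Myd88-/- minus Myd88+/+, of each of the 37 genes by role (filled points with bars of 1 limma SE, all 6 mice) and the same without Myd88+/+ replicate 3 (open diamonds). Cd52 and Ptprc lie lowest, at -1.83 and -1.62, and without that mouse 31 of the 37 points remain left of 0.

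Relatives listed as broadly expressed were set beside the members, which are called the blood cell forms here. For 24 members such a relative had been listed, and 23 of these were measured (Arhgdia was not analysed here). The 23 relatives had a median difference of -0.16, with 17 lower and 6 higher in Myd88-/- glands, 1 lower at an unadjusted p under 0.05 and 0 past the adjusted threshold. Of all named genes above background, 58.8% had a lower mean. Their 23 blood cell counterparts had a median of -0.49, with 23 lower and 9 of them at an unadjusted p under 0.05, where 48.4% of all named genes were lower and 5.67% lower at that threshold. The blood cell form had the lower difference in 20 of 23 pairs, and in 15 of 23 without Myd88+/+ replicate 3. The exceptions were Lcp1 beside Pls3, Apbb1ip beside Raph1 and Inpp5d beside Inppl1, the last at -0.49 and -0.61. Hcls1 at -1.17 stood beside Cttn at 0.09, Nckap1l at -1.02 beside Nckap1 at 0.16, Dock2 at -1.05 beside Dock1 at -0.11 and Rac2 at -0.53 beside Rac1 at -0.10. The Myd88-/- means of Hcls1 and Nckap1l were under background. Other pairs were nearly level, with Vav1 at -0.22 beside Vav2 at -0.20. Gmfg at -0.29 stood beside Gmfb at -0.25, and Arhgap25 at -0.10 beside Arhgap24 at -0.07. The relatives' median without Myd88+/+ replicate 3 was -0.16, and that of the 23 blood cell forms was -0.26. The difference between the forms of a pair was not tested. All but 1 of the 23 relatives had a mean above background, against 15 of the 23 blood cell forms. The exception was Dok1, which was therefore not shown to be broadly expressed in these glands. Lcp1, counted as a blood cell form, is not specific to blood cells.

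**Figure D3:**
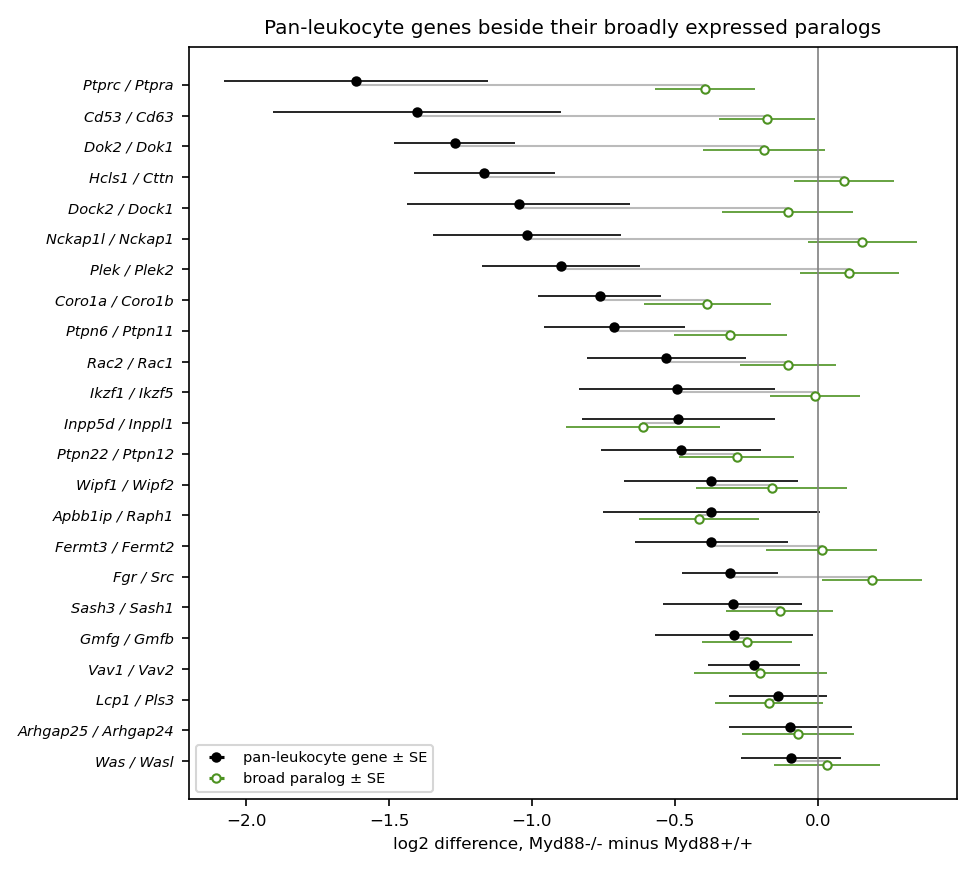
Log2 difference, Myd88-/- minus Myd88+/+, of 23 members (filled) and of the relative of each that was listed as broadly expressed (open, green), with bars of 1 limma SE. The filled point lies left of the open one in 20 of the 23 pairs, and without Myd88+/+ replicate 3 (not drawn) the member had the lower difference in 15.

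Other leukocyte signalling genes, listed apart from the 37, also had mostly lower means. Of 55 listed genes 51 were measured, and 48 had a lower and 3 a higher mean in Myd88-/- glands, with a median of -0.41 (-0.29 without Myd88+/+ replicate 3), against 48.4% of all named genes with a lower mean. None passed the adjusted threshold (0 of 51), while 18 were lower and 0 higher at an unadjusted p under 0.05, against 5.67% and 4.19% of all named genes. The 4 with the smallest p were Blnk, Fyb, Selplg and Dock8. Fyb, which joins T cell receptor signals to integrins, had a difference of -1.17. Selplg, the selectin ligand on leukocytes, had -1.59, and Dock8, an exchange factor whose loss causes immunodeficiency in humans, had -0.69. Their adjusted p lay between 0.321 and 0.382.

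Lists of markers of single cell types had median differences between -0.90 and 0.17. A list score is the mean, over the genes of a list, of the deviation from each gene's mean over the 6 arrays. For the 37 genes it was -0.20, -0.28 and -0.42 in Myd88-/- glands, against -0.09, 0.21 and 0.78 in Myd88+/+ glands, so the groups did not touch and Myd88+/+ replicate 1 was nearest to the Myd88-/- glands. This was not particular to the 37 genes. The scores did not touch either for the macrophage and monocyte, NK cell, fibroblast and other leukocyte signalling lists. In reverse, they did not touch for platelet and red cell markers. Even over all named genes they did not touch, though all lay near 0. There they were -0.004, -0.002 and -0.010 in Myd88-/- glands, against 0.008, 0.002 and 0.006 in Myd88+/+ glands. Macrophage and monocyte markers (8 measured, 8 lower, median -0.90, 0 with both means under background) scored -0.37, -0.37 and -0.64 in Myd88-/- glands, against 0.13, 0.31 and 0.95 in Myd88+/+ glands. T cell markers (10 measured, 7 lower, median -0.30, or -0.19 without Myd88+/+ replicate 3, 3 with both means under background) scored -0.17, -0.22 and -0.11 in Myd88-/- glands, against -0.19, 0.08 and 0.61 in Myd88+/+ glands. Myd88+/+ replicate 1 was inside the Myd88-/- range there. The 4 with the smallest p were Cd247, Cd3e, Cd3g and Cd3d, all chains of the T cell receptor complex. Cd247 was higher in every Myd88-/- gland, at 7.06, 7.38 and 6.90 in Myd88-/- glands, against 6.66, 6.64 and 6.48 in Myd88+/+ glands, a difference of 0.52 (limma adjusted p = 0.431). Cd3e read 5.27, 4.74 and 4.91 in Myd88-/- glands, against 5.13, 5.85 and 8.26 in Myd88+/+ glands, and its difference of -1.44 was -0.51 without Myd88+/+ replicate 3. Cd3g and Cd3d had differences of -1.14 and -0.47, or -0.37 and -0.29 without that mouse, while Lat and Cd28 had 0.20 and 0.02. B cell markers (9 measured, 6 lower, median -0.05, or 0.06 without Myd88+/+ replicate 3, 6 with both means under background) scored -0.12, -0.07 and 0.04 in Myd88-/- glands, against -0.28, 0.02 and 0.41 in Myd88+/+ glands, with Cd79a, a chain of the B cell receptor, at 3.78 to 4.09 in Myd88-/- and 3.81 to 4.90 in Myd88+/+ glands. NK cell markers (7 measured, 6 lower, median -0.77, or -0.49 without Myd88+/+ replicate 3, 4 with both means under background) scored -0.26, -0.38 and -0.23 in Myd88-/- glands, against -0.09, 0.49 and 0.47 in Myd88+/+ glands.

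Dendritic cell, granulocyte and mast cell markers had medians of -0.09, 0.05 and -0.05, with 5 of 7, 5 of 7 and 4 of 7 genes under background in both groups. Without Myd88+/+ replicate 3 the mast cell median was 0.22 and that of the lymph node stroma 0.04. Among the mast cell genes, Cpa3, a mast cell protease, read 5.44, 4.99 and 5.73 in Myd88-/- glands, against 6.19, 6.40 and 6.77 in Myd88+/+ glands. The receptor chain gene Fcer1a had a higher mean in Myd88-/- glands by 0.56. Every value of Fcer1a was under the background control median, as was Cpa3 in Myd88-/- replicates 1 and 2. Nodes lie beside the gland, and their part in these samples was not tested. Lymph node stroma markers had a median of -0.14 with 4 of 7 lower and 5 of 7 under background in both groups. The smallest p among them was that of Prox1, which was higher in every Myd88-/- gland. Its difference was 0.84 (limma adjusted p = 0.411), with all Myd88+/+ values under background. Platelet and red cell markers had a median of 0.17 (0.26 without Myd88+/+ replicate 3) with 1 of 5 lower. Fibroblast markers were lower in 7 of 7 genes with a median of -0.52, scoring -0.34, -0.08 and -0.71 in Myd88-/- glands, against 0.03, 0.26 and 0.83 in Myd88+/+ glands. Endothelial markers had -0.27 with 6 of 7 lower, and secretory epithelial markers -0.09 (0 without Myd88+/+ replicate 3) with 6 of 11 lower, Klk1 and Prol1 at the ceiling counting as neither. Whether the amount of macrophage, other leukocyte or stromal RNA accounts for the members' differences was not tested.

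**Figure D4:**
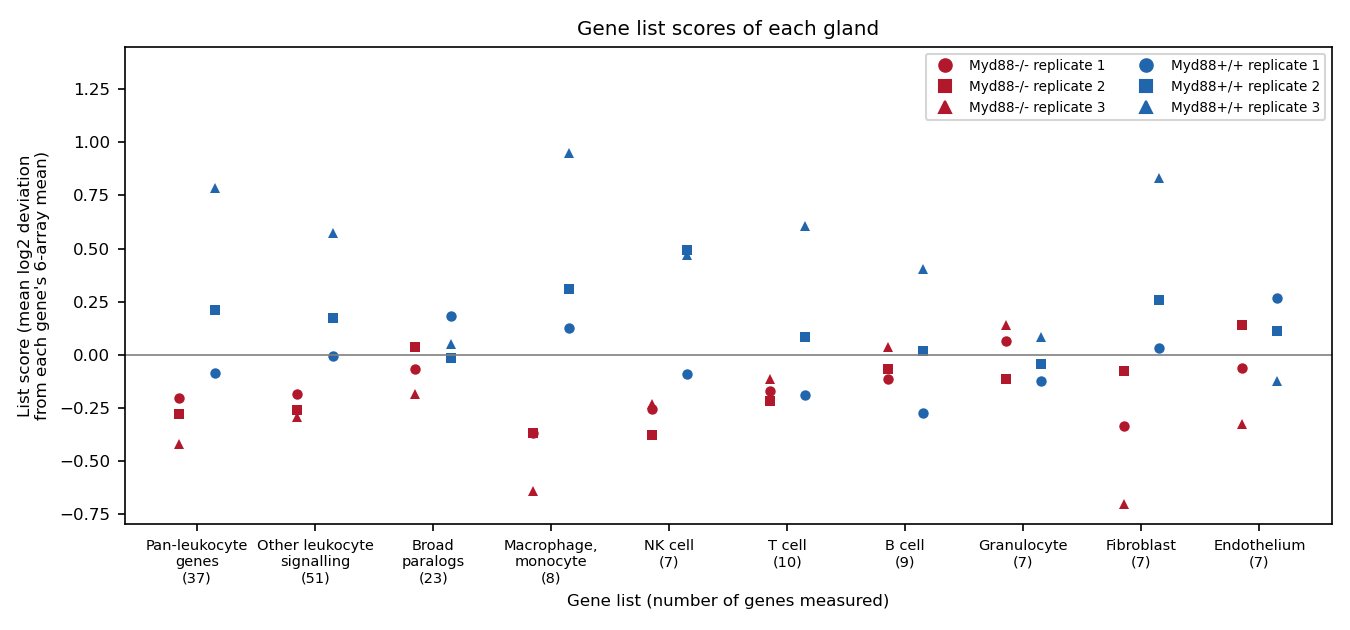
Score of each gland for 10 gene lists, as the mean log2 deviation from each gene's 6-array mean, with 1 point per mouse (Myd88-/- in red at the left of each list, Myd88+/+ in blue at the right, symbols for replicates) and the number of measured genes under each list. For the 37 pan-leukocyte genes the Myd88-/- points run from -0.42 to -0.20 and the Myd88+/+ points from -0.09 to 0.78.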

How the data were processed

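RNA of 6 submandibular glands was hybridised to 1 Clariom S array each. Per the labels, the authors made the deposited log2 values with RMA (robust multi-array averaging) in Transcriptome Analysis Console software. Its version and the array's build are not given in these sources. RMA compresses small differences near background and at the ceiling. Of 28846 rows, 6640 control probe sets were left out; 19572 of the 22206 others had 1 gene symbol, 0 had several and 2634 none, and 67 further probe sets of a gene were dropped for the one with the highest mean. All 22206 were fitted with limma 3.58.1 in R 4.3.3 (lmFit, eBayes, no covariates), Myd88-/- minus Myd88+/+. P-values were adjusted by Benjamini-Hochberg over all, and an adjusted p under 0.05 was a call. The fit was tested on simulated data, with log2 changes larger than the difference of any member. Recovery of differences as small as those of the members was not tested. The number of arrays limits precision.

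The members and all gene lists were chosen with earlier results of these data known. Named genes follow a rule: all members, by-sample values for Ptprc, Ikzf1 and, per role, the 4 largest limma statistics and the smallest difference, and up to 4 genes of other lists by unadjusted p. Vav1, Nckap1l and the other members, Spi1, Lat, Cd28, Cd79a, Dcpp3, Klk1, Prol1 and Aqp5 were added or singled out after their values were seen. RefSeq windows (GRCm38.p6) were searched for letters on both strands. Alternatives were other normalizations, filters on dim probe sets, variance models, array weights, the replicate number as a block, another probe set rule, leaving out each mouse and, chosen after seeing the data, leaving out 3 members or those near background.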

Additional observations from a re-analysis of the deposited data

How the results depend on the processing

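No member was called by limma under any of the 15 settings (0 of 37, or 0 of 31 and 0 of 23 without the dimmest 30% and 50% of probe sets), at a smallest adjusted p of 0.146. Over all probe sets limma called 0 with the main setting, 2 after median centring and 4 with robust variances fitted on an intensity trend, and between 0 and 5 when 1 mouse was left out (5 without Myd88+/+ replicate 1). The median difference of the members ran from -0.80 (without Myd88+/+ replicate 1) to -0.26 (without Myd88+/+ replicate 3) when 1 mouse was left out and from -0.63 to -0.49 under the other settings planned. It was -0.48 without Dok2, Clnk and Tmsb10 (31 of 34 lower) and -0.67 for members above background (24 of 26 lower). Members with a lower mean numbered 31 to 36 without 1 mouse, 35 after quantile normalization or cyclic loess, and 21 of 23 without the dimmest 50%, where fewer genes were counted. The difference changed sign for 5 of the 37 in at least 1 setting (Cd48, Tmsb4x, Arhgap25, Cytip and Samsn1). The replicate number as a block gave 0 calls. Its median of -0.49 and 34 of 37 lower could not change, because each number holds 1 mouse of each genotype. Deviations of same-numbered mice from their group means correlated at r = -0.11, -0.15 and -0.02, and those of differently numbered mice at -0.12 to 0.20. No pairing by number was seen, but 3 mice a group are too few to exclude one. With 3 mice a group the exact test cannot give a p under 0.1, and 9 of the 37 genes had both means under background, where the size of a difference is uncertain.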
